A study of Mus musculus with 11 samples.

Results

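The 38 genes described here carry the interferon response and class I antigen presentation, and were taken by symbol from a list of interferon-stimulated genes, their regulators and the presentation machinery. They were measured by RNA sequencing in HT22 cells, an SV40-immortalized mouse hippocampal line, and in TR/TO-Klf9, a stably transfected derivative with a tetracycline repressor and a Klf9 gene that doxycycline switches on, kept under zeocin and blasticidin. All 38 were found among the 24143 genes of the count table, and 30 of them were among the 13536 genes with enough reads to test. The groups were TR/TO-Klf9 cells with 0.5 µg/ml doxycycline, TR/TO-Klf9 cells with DMSO vehicle, parent HT22 cells with the same doxycycline and parent HT22 cells with vehicle, each treated for 8 hours and grown in serum. TR/TO-Klf9 carries the plasmids pCDNA6:TR and pCDNA4:TO-Klf9, which the labels do not list for the parent line. The study asked which genes Klf9 regulates. Klf9 is a zinc finger transcription factor whose family binds GC-rich and CACCC sequences. The labels name no interferon or virus among the treatments. The labels do not say whether TR/TO-Klf9 is 1 clone or whether replicates came from separate cultures, and a p-value here covers the spread among these samples, which may be technical.

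Interferons signal through paired receptors and Jak kinases to Stat2 and Irf9, whose complex binds the interferon-stimulated response element (ISRE) in the promoters of antiviral genes. Cells sense viral RNA with the helicases Ddx58 (RIG-I), Ifih1 (MDA5) and Dhx58 (LGP2), which act through Mavs, Tbk1 and Irf3 to switch on type I interferon. Class I presentation cuts proteins with the proteasome, pumps the peptides through Tap1 and Tap2, and loads them on heavy chains paired with B2m. Resting neurons are known for low class I display.

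The columns labelled doxycycline 1 and vehicle 3 of TR/TO-Klf9 were identical throughout. Their labels contradict each other, and neither was placed in a group. The 9 libraries kept were 1 of doxycycline-treated and 2 of vehicle-treated TR/TO-Klf9 cells and 3 each of doxycycline-treated and vehicle-treated parent cells. Totals ran from 10302431 to 18902784 counts, with 12383212 in the lone TR/TO-Klf9 doxycycline library, whose spread was assumed to equal that of the other groups. Klf9 checked the labels: it held 101 CPM (counts scaled to library size) in the TR/TO-Klf9 doxycycline library, 48.7 and 44.1 in TR/TO-Klf9 vehicle, 38.1 to 39.6 in parent doxycycline and 36.1 to 41.4 in parent vehicle libraries. The library under both labels held 45.9 CPM of Klf9, inside the span of the TR/TO-Klf9 vehicle libraries. Some libraries of 1 group stood apart by chi-square over its degrees of freedom, where sampling noise gives about 1. TR/TO-Klf9 vehicle 1 and 2 stood at 7.43, and parent vehicle 1 at 5.62 against parent vehicle 2 and at 3.37 against parent vehicle 3. The 3 pairs of parent doxycycline libraries stood at 0.960 to 1.029, so the groups did not have equal spread. A spread shared by all groups may be too small for TR/TO-Klf9 cells, and their p-values too low. The cells carried few transcripts of mature neurons. Rbfox3, a marker of neuronal nuclei, reached at most 0.234 CPM in any library, and 5 of 17 neuron markers had enough reads to test. Of 15 fibroblast markers 12 did, and collagen Col1a2 held 1141 to 1527 CPM. A few neural transcripts stood out in TR/TO-Klf9 vehicle 1. Snap25 held 1.64 CPM there and at most 0.198 CPM in any other library kept. Slc1a2, listed as a glial marker, held 6.33 CPM there and at most 0.467 CPM elsewhere. Tubb3 lay level between the vehicle libraries (14.1 and 13.8 CPM). Snap25 and Slc1a2 were singled out after their values were seen, and the cause was not tested.

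The promoters of 4 members are shown because the results below turn on these genes. They run from 250 bases before to 50 after the start of transcription, 5′ to 3′ on the gene's own strand, in RefSeq's GRCm38.p6 windows. Trim56 (chr5:137116158-137116457, minus strand) is shown for the largest response to doxycycline among the members, with a CACCC box, read on the other strand as GGGTG, in capitals. Ddx58 (chr4:40239776-40240075, minus strand) and Ifit1 (chr19:34640639-34640938, plus strand) are shown for opposite differences between the cell lines, with ISRE cores in capitals. Tap1 (chr17:34187306-34187605, plus strand) is shown for its lower level in TR/TO-Klf9 cells, with a GC box in capitals, and shares 275 bases with the window of Psmb9 on the other strand. All capitals here are matches on the strand opposite to the one printed.
Trim56: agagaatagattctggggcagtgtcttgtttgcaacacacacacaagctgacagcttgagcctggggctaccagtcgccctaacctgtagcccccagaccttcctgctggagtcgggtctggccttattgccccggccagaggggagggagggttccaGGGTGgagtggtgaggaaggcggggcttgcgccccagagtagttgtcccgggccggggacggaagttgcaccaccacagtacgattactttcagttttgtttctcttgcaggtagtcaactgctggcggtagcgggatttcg
Ddx58: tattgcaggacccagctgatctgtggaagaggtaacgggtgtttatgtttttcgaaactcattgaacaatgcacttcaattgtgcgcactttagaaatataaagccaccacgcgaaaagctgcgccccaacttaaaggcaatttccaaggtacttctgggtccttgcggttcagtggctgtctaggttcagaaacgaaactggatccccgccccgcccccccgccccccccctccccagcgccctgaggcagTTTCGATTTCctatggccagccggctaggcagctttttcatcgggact
Ifit1: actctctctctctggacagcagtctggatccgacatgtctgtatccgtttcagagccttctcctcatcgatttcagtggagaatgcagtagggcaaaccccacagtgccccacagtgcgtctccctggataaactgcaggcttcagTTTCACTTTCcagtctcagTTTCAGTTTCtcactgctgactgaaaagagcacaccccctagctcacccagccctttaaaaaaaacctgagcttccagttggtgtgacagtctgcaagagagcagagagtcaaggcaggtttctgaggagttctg
Tap1: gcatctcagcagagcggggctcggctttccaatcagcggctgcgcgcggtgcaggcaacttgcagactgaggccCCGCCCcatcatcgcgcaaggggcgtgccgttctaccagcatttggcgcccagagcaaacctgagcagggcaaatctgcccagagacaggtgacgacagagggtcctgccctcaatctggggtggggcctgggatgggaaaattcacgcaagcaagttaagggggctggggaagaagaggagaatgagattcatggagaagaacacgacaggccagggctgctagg

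A window was at hand for 30 of the 38 members. Each motif was searched as letters on both strands, and overlapping matches were counted. The ISRE core, read as GAAA, any 2 bases and GAAA again, stood in the windows of 14 of these 30 genes (46.67%), against 3.44% of the 32851 windows in the whole table. The genes were B2m, Bst2, Ddx58, Eif2ak2, Gbp2, Gbp3, Gbp7, Ifih1, Ifit1, Ifit3, Irf2, Isg15, Rsad2 and Stat2. The gamma-activated sequence TTCNNNGAA stood in 9 of 30, against 8.3% of all windows, the GC box GGGCGG in 14 of 30, against 35.66%, and CACCC in 25 of 30, against 57.52%. In Trim56 the CACCC match began at −92 from the start of transcription, and its window held none of the other 3 patterns. The Ddx58 core began at 3 bases after the start, and the Ifit1 cores at −104 and −85. Since windows per gene differ, these shares describe letters and not binding.

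Across the libraries the members ran from 0 to well over 100 CPM. All 6 transcription factors and 4 of 5 sensors and ligases had enough reads to test, as did 15 of 19 effectors and 5 of 8 presentation genes. In CPM per kilobase of transcript in parent vehicle cells, B2m led with 124, then H2-D1 with 34.7, Adar with 28.4, Irf3 with 23.4, Irf1 with 23.3 and Trim25 with 22.8. In the scaled counts not divided by length, Irf3, which turns on type I interferon after sensing, held 42.4 to 52.1 CPM over the 9 libraries. Irf1, an activator of interferon-gamma and class I genes, held 44.4 to 52.2 CPM, and Irf2, its competitor, 28.1 to 35.3 CPM. Irf9 held 12.7 to 17.2 CPM and Stat2 17.9 to 24.4 CPM. Irf7, which interferon itself induces, held 0.594 to 1.34 CPM. Irf7 thus stood far below the other 5 factors in all 9 libraries.

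Among effectors the range was widest. Adar, which edits adenosine in double-stranded RNA, held 150.01 to 184 CPM, Eif2ak2 (PKR), the kinase that halts translation on such RNA, 66.6 to 85.1 CPM, and Ifit2, which binds viral RNA or translation factors, 58.6 to 70.1 CPM. Dtx3l, Parp9 and Ifi35 held between 16.2 and 31.0 CPM. Dtx3l is a ubiquitin ligase and Parp9 its partner. Ifit1, Isg15, Usp18, Gbp2, Oasl2, Parp14, Gbp3 and Bst2 ran from 0.705 to 8.73 CPM. Ifit3 held 0.0911 to 0.996 CPM. The effectors Rsad2, Mx1, Mx2 and Gbp7 had too few reads to test, with 20, 6, 11 and 29 counts over all 9 libraries. Rsad2 had 6 counts in the TR/TO-Klf9 doxycycline library and 4 and 4 in TR/TO-Klf9 vehicle libraries, against 0, 1 and 1 in parent doxycycline and 2, 1 and 1 in parent vehicle libraries, and it too did not pass between the lines with no filter. The library under both labels held 0.1708 CPM of Rsad2. The other TR/TO-Klf9 libraries held 0.2972 to 0.4597 CPM and the parent libraries 0 to 0.1038 CPM. Rsad2, known as viperin, and the Mx GTPases are classic readouts of interferon. The counts thus show hardly any transcript of these readouts under any of the 4 conditions, while Ifit2 held 58.6 to 70.1 CPM. The Mx1 and Mx2 entries counted are non-coding transcripts in RefSeq, so they are a weak readout here. A count of 0 in a library allows up to 3 counts, which is 0.159 to 0.291 CPM, and such limits cover counting error only.

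**Figure D1:**
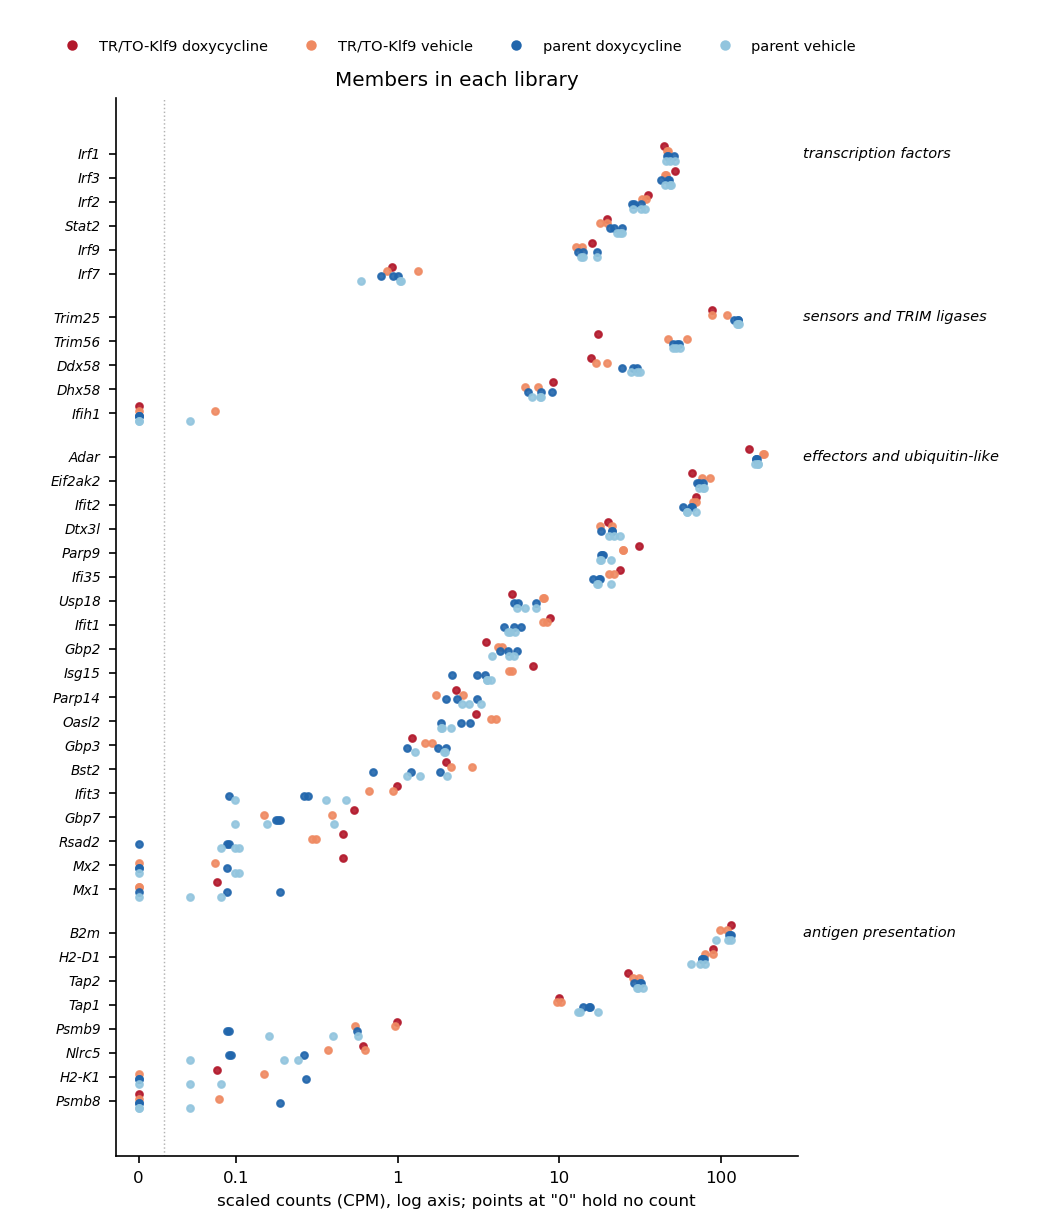
Scaled counts (CPM, log axis) of the 38 members, 1 point per library, by role, with doxycycline above vehicle of TR/TO-Klf9, then parent doxycycline and parent vehicle in each row. Points left of the dotted line hold no count, and Trim56 is the member whose TR/TO-Klf9 doxycycline point (17.3 CPM) lies farthest from the other libraries among those over 10 CPM.

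Of the RNA sensors, Ddx58 held 15.7 to 31.8 CPM and Dhx58, which tunes the other helicases, 6.17 to 9.12 CPM. Ifih1 had 2 counts in all 9 libraries together. The ligases Trim25, which modifies Ddx58 with ubiquitin, and Trim56, described in the literature as an activator of the cGAS and STING branch and of RNA sensing, held 87.7 to 129 and 17.3 to 61.6 CPM. The ligands themselves were hardly seen. Of 9 interferon genes 7 had no count in any library, Ifnb1 had 13 counts and Ifne had 8. All 9 receptor and kinase genes of the signalling list had enough reads to test. Among 15 other sensing genes 14 did, and among 10 negative regulators 9 did.

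The class I machinery was uneven. B2m, the light chain, held 93.2 to 116 CPM and the heavy chain H2-D1 65.2 to 90.0 CPM, while the heavy chain H2-K1 had 8 counts in all. Class I genes differ between mouse strains and are near-copies of each other, so the counts of H2-K1 are uncertain. Nlrc5, the transactivator of class I genes, had 8 counts in the TR/TO-Klf9 doxycycline library, 8 and 5 in TR/TO-Klf9 vehicle, 1, 1 and 3 in parent doxycycline and 1, 2 and 3 in parent vehicle libraries. In the 9 libraries kept, the TR/TO-Klf9 and parent counts of Nlrc5 did not overlap, but the share of all genes without overlap was not counted. The library under both labels, also of TR/TO-Klf9, held 0.1708 CPM of Nlrc5. That value lies inside the parent span of 0.0519 to 0.2645 CPM, so the lines overlap once it is included. With no filter on low counts Nlrc5 did not pass between the lines under vehicle. Per kilobase, the catalytic subunits of the standard proteasome stood at 87.6 (Psmb5), 105 (Psmb6) and 76.8 (Psmb7) CPM in the TR/TO-Klf9 doxycycline library, against 83.7, 98.8 and 77.2 in TR/TO-Klf9 vehicle cells. Of the interferon-induced subunits that replace them, Psmb10 stood at 17.9 and Psmb9 at 0.737 CPM per kilobase in that doxycycline library. Psmb8 had 4 counts in all 9 libraries and none in that one. The standard subunits thus stood far above Psmb8 and Psmb9 in every library. Tap2 held 26.5 to 33.1 CPM and Tap1 9.73 to 17.3 CPM.

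**Figure D2:**
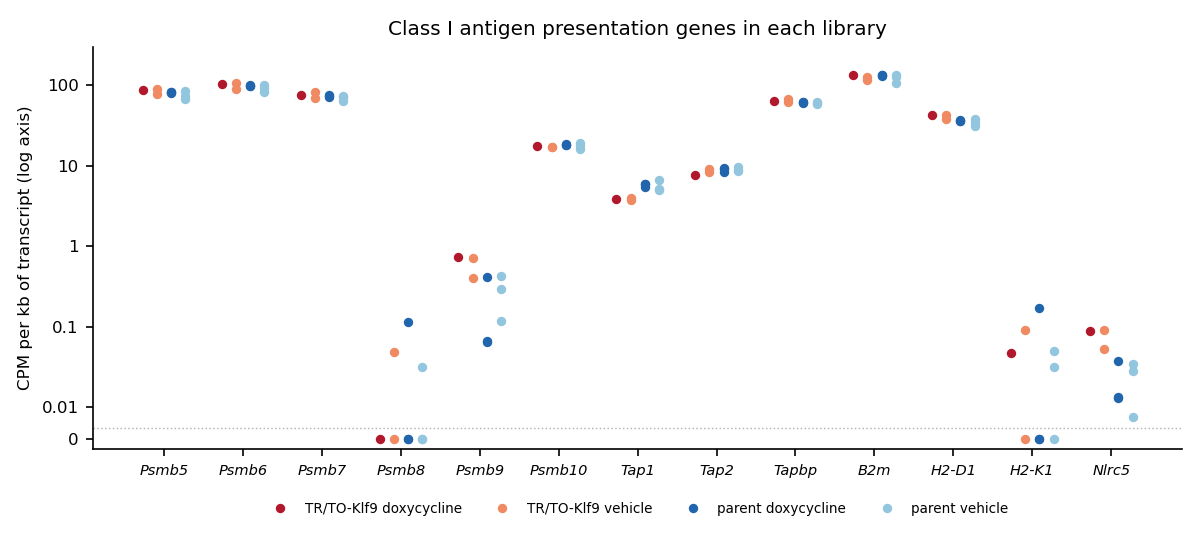
Scaled counts per kilobase of transcript (log axis) of class I presentation genes, 1 point per library, with doxycycline left of vehicle for TR/TO-Klf9, then parent doxycycline and parent vehicle. Points under the dotted line hold no count. Psmb8, H2-K1 and Nlrc5, with 4, 8 and 32 counts in all, lie far below Psmb5, Psmb6, Psmb7 and B2m.

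In TR/TO-Klf9 cells 3 of the 30 tested members passed an adjusted p of 0.05 (edgeR's quasi-likelihood test, adjusted over all 13536 genes) on doxycycline against vehicle, and all 3 fell: Trim56, Adar and Eif2ak2. Over all genes 11.4% fell and 6.44% rose, so the members' share that fell, 10.0%, lay near the background. The members' median log2 fold change was 0.04, against −0.01 over all genes. None rose. At an unadjusted p under 0.05, 2 members (6.67%) lay higher and 4 (13.3%) lower, against 13.8% and 18.3% of all genes. DESeq2 called 2 members and limma-voom 4, Parp9 being the addition.

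Trim56 (chromosome 5) was the member with the largest fall. It held 17.3 CPM in the TR/TO-Klf9 doxycycline library, against 47.0 and 61.6 CPM in the TR/TO-Klf9 vehicle libraries. Parent doxycycline libraries held 50.8, 54.8 and 53.4 CPM and parent vehicle libraries 52.8, 50.8 and 56.1 CPM. The doxycycline library of TR/TO-Klf9 lay below each of the other 8, which lay between 47.0 and 61.6 CPM. Its level was 31.9% of the TR/TO-Klf9 vehicle mean of 54.3 ± 10.3 CPM (SD, n = 2), a significant fall (log2 −1.65 ± 0.15 SE, adjusted p = 5.54e-06). Against vehicle 1 and vehicle 2 singly the log2 differences were −1.44 and −1.83, while the vehicle libraries differed from each other by 0.39. In a fit of the 3 TR/TO-Klf9 libraries alone, Trim56 still passed (log2 −1.63, adjusted p = 0.0155) and no other member did, where 0.542% of all genes fell. The library under both labels held 48.2 CPM, inside the span of the vehicle libraries. Counted as vehicle it left Trim56 past the threshold (log2 −1.58, adjusted p = 7.44e-06), and counted as doxycycline it did not (log2 −0.74, adjusted p = 0.403).

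Adar (chromosome 3) held 150.01 CPM in the TR/TO-Klf9 doxycycline library, against 183 and 184 CPM in TR/TO-Klf9 vehicle libraries. Parent doxycycline libraries held 166, 166 and 166 CPM and parent vehicle libraries 170.1, 163 and 169.7 CPM. The doxycycline value of TR/TO-Klf9 lay below both its vehicle values, and the fall was small (log2 −0.29 ± 0.06 SE, adjusted p = 0.00487), to 81.8% of the vehicle mean. Against each vehicle library singly it was −0.28 and −0.29, with 0.01 between the vehicle libraries. Eif2ak2 (chromosome 17) held 66.6 CPM in the TR/TO-Klf9 doxycycline library, against 76.2 and 85.1 CPM in TR/TO-Klf9 vehicle, and 71.2 to 77.1 CPM in parent doxycycline and 73.4 to 78.3 CPM in parent vehicle libraries. Its fall (log2 −0.28 ± 0.08 SE, adjusted p = 0.0298) came to −0.20 and −0.35 against the vehicle libraries singly, which differed by 0.16. Adar and Eif2ak2 both act on double-stranded RNA. By DESeq2 Eif2ak2 did not pass (log2 −0.27, adjusted p = 0.0983). It also did not pass without TR/TO-Klf9 vehicle 2 (log2 −0.18, adjusted p = 0.0931), parent vehicle 3 (log2 −0.26, adjusted p = 0.0604) or any 1 of the 3 parent doxycycline libraries (adjusted p = 0.0602 to 0.0677). The library under both labels held 173 CPM of Adar, below both vehicle libraries, and 85.7 CPM of Eif2ak2, above both.

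Transcript length moved with this comparison. The median transcript of genes that fell measured 5018 bases and that of genes that rose 1850, against 2804 over all tested genes and 2565 over the members. The transcripts of Trim56, Adar and Eif2ak2 measure 9279, 5909 and 4313 bases. With the length trend of each library removed, Trim56 stayed past the threshold (log2 −1.36, adjusted p = 3.60e-05), while Adar (log2 −0.10, adjusted p = 0.357) and Eif2ak2 (log2 −0.17, adjusted p = 0.211) did not. Parp9 then passed upward (log2 0.38, adjusted p = 0.0340). In that fit 4.95% of all genes fell and 5.36% rose.

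**Figure D3:**
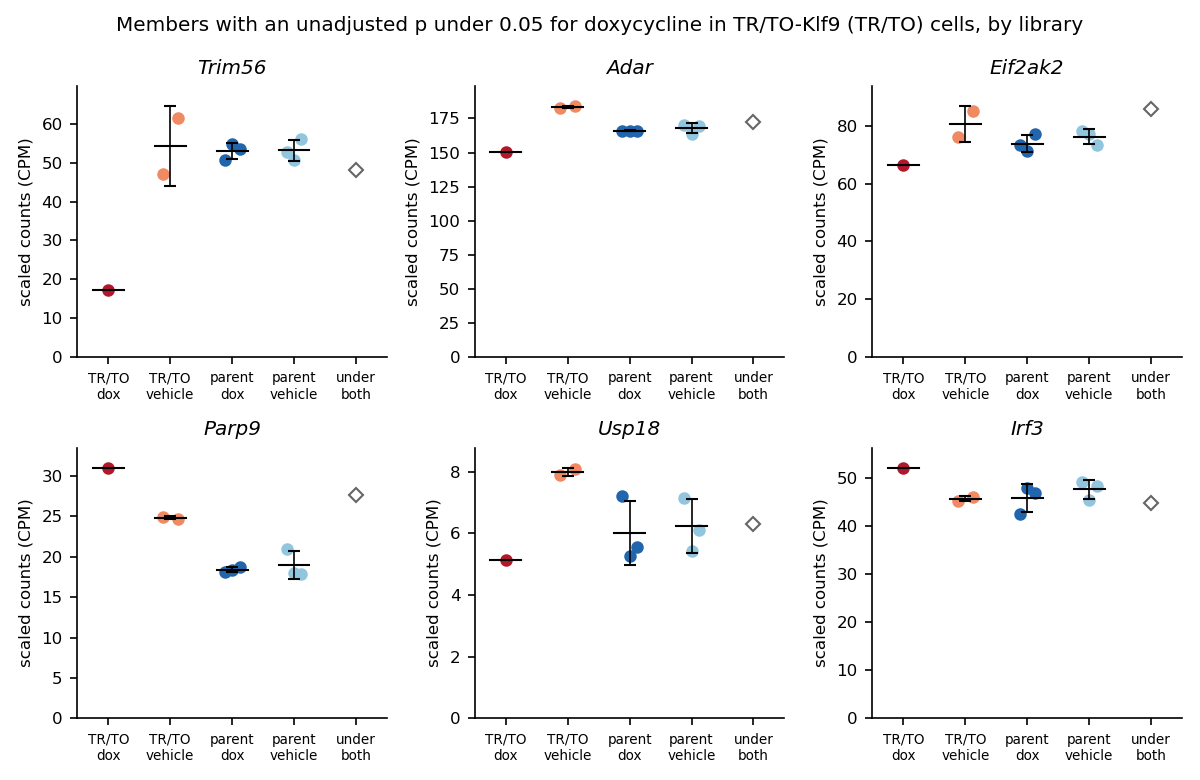
Scaled counts (CPM) by library of the 6 members with an unadjusted p under 0.05 for doxycycline in TR/TO-Klf9 cells, where TR/TO stands for TR/TO-Klf9 and dox for doxycycline. Lines are group means, bars SD where a group has more than 1 library, and the open diamond is the library that stood under both TR/TO-Klf9 labels. Trim56 at 17.3 CPM lies far below its other libraries, and Adar, Eif2ak2, Parp9, Usp18 and Irf3 lie within a narrower span.

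The other 27 tested members did not pass in TR/TO-Klf9 cells. Parp9 held 31.0 CPM with doxycycline, against 24.9 and 24.7 CPM with vehicle (log2 0.32 ± 0.11 SE, adjusted p = 0.0565). Usp18, which removes Isg15 from proteins and damps the interferon receptor, held 5.13 CPM, against 7.89 and 8.10 CPM (log2 −0.64 ± 0.22 SE, adjusted p = 0.0574). Both lay just short of the threshold, and Parp9 passed without parent vehicle 1 (adjusted p = 0.0328), parent vehicle 2 (adjusted p = 0.0474) or TR/TO-Klf9 vehicle 2 (adjusted p = 0.0447). Parp9 also passed by limma-voom (adjusted p = 0.0459), with RLE scaling (adjusted p = 0.0475) and with a stricter filter (adjusted p = 0.0446). Isg15, the ubiquitin-like modifier, held 6.90 CPM, against 4.92 and 5.13 CPM (log2 0.46 ± 0.22 SE, adjusted p = 0.161). Irf3 held 52.1 CPM with doxycycline, against 45.3 and 46.0 CPM with vehicle (log2 0.19 ± 0.09 SE, adjusted p = 0.145). The 13 effectors that did not pass ran from −0.64 (Usp18) to 0.46 (Isg15) on the log2 scale, with Ifit1 at 0.10 ± 0.18 and Ifit2 at 0.03 ± 0.09. The 6 factors ran from −0.26 (Irf7) to 0.27 (Irf9) on the log2 scale. The helicases Dhx58 (0.42 ± 0.20) and Ddx58 (−0.22 ± 0.15) and the ligase Trim25 (−0.16 ± 0.10) did not pass, though Trim25 passed without TR/TO-Klf9 vehicle 1. The 5 tested presentation genes ran from −0.17 (Tap2) to 0.38 (Psmb9), with B2m at 0.15 ± 0.10 and H2-D1 at 0.07 ± 0.10. Over the members the median absolute log2 difference was 0.236 between the doxycycline library and the vehicle mean, against 0.133 between the vehicle libraries. Over all tested genes these medians were 0.185 and 0.136.

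In parent cells no member passed on doxycycline against vehicle by edgeR, DESeq2 or limma-voom, and none had an unadjusted p under 0.05 by any of the 3. Over all 13536 genes 0.0% passed by edgeR, and 2.16% had an unadjusted p under 0.05. Trim56 averaged 53.0 ± 2.06 CPM (SD, n = 3) with doxycycline and 53.2 ± 2.67 CPM (SD, n = 3) with vehicle (log2 −0.01 ± 0.08 SE). Adar stood at −0.02 ± 0.04 and Eif2ak2 at −0.05 ± 0.06 on the log2 scale. The least precise estimates were those of the scarce genes Psmb9 (−0.71 ± 0.72) and Ifit3 (−0.63 ± 0.68).

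**Figure D4:**
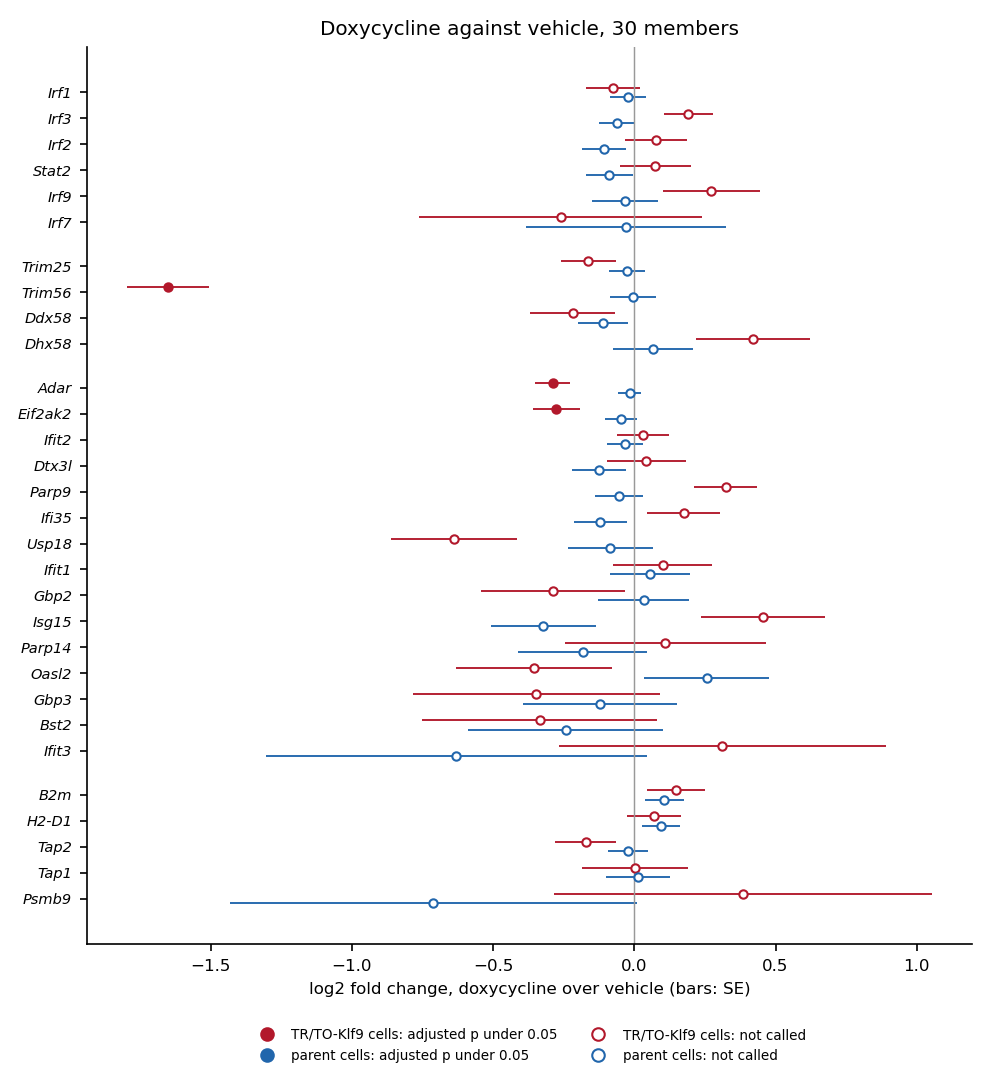
Log2 fold change of doxycycline over vehicle with its SE for the 30 tested members, TR/TO-Klf9 above parent cells in each row, grouped by role. Filled points passed an adjusted p of 0.05: Trim56 (−1.65), Adar (−0.29) and Eif2ak2 (−0.28) in TR/TO-Klf9 cells, and none in parent cells.

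The difference between the doxycycline effects, TR/TO-Klf9 minus parent, was tested directly. Of 30 members 2 passed, both lower: Trim56 (log2 −1.65 ± 0.17 SE, adjusted p = 3.98e-05) and Adar (log2 −0.27 ± 0.07 SE, adjusted p = 0.0297). Over all genes 6.92% were lower and 2.75% higher, so 6.67% of members lay near the background. No member passed upward, while 3 lay higher and 3 lower at an unadjusted p under 0.05 (10.0% each), against 10.6% and 14.6% of all genes. DESeq2 called 1 member and limma-voom 2 in this contrast, all lower. With the length trend removed Adar did not pass (log2 −0.09, adjusted p = 0.576) and Trim56 did. Trim56 was the 1 member left, and Adar did not pass, without parent vehicle 2 (Adar log2 −0.24, adjusted p = 0.0656), parent vehicle 3 (log2 −0.26, adjusted p = 0.0845), parent doxycycline 1 (log2 −0.26, adjusted p = 0.0960), parent doxycycline 2 (log2 −0.25, adjusted p = 0.104) or parent doxycycline 3 (log2 −0.25, adjusted p = 0.106). Without TR/TO-Klf9 vehicle 1, Eif2ak2 and Trim25 passed as well, which made 4 members. Eif2ak2 stood at −0.23 ± 0.10 (adjusted p = 0.159) and Isg15 at 0.78 ± 0.29 (adjusted p = 0.0966). This contrast shares its libraries with the within-line ones, so it adds no independent samples.

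The cell lines themselves differed under vehicle in 9 of 30 members. Ifit1, Oasl2, Parp9, H2-D1 and Adar were higher in TR/TO-Klf9 cells, relative to parent cells, and Ddx58, Trim25, Tap1 and Stat2 were lower. Over all tested genes 18.8% were higher and 20.1% lower, so the members' shares, 16.7% and 13.3%, lay near the background. The members' median log2 difference was 0.05, against 0.01 over all genes. Without parent vehicle 1, 10 members passed, and without TR/TO-Klf9 vehicle 1 or vehicle 2, 9 and 11. In these bulk samples fewer expressing cells and less RNA per cell cannot be told apart.

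The lower members included Ddx58 and Trim25, which act at the start of RNA sensing. Ddx58, the receptor, held 16.8 and 19.7 CPM in TR/TO-Klf9 vehicle libraries, against 31.8, 27.9 and 30.2 CPM in parent vehicle libraries (log2 −0.72 ± 0.10 SE, adjusted p = 3.46e-05). The groups did not overlap. In the doxycycline libraries, whose means do not enter this contrast, Ddx58 held 15.7 CPM in the TR/TO-Klf9 doxycycline library and 30.4, 24.6 and 28.7 CPM in parent doxycycline libraries. Trim25 held 87.7 and 109.9 CPM in TR/TO-Klf9 vehicle libraries, against 125, 128 and 129 CPM in parent vehicle libraries (log2 −0.37 ± 0.07 SE, adjusted p = 0.000771). It stood at −0.21 without TR/TO-Klf9 vehicle 1 and −0.55 without TR/TO-Klf9 vehicle 2, and passed in both. Its doxycycline libraries lay in the same order, at 88.3 CPM in the TR/TO-Klf9 doxycycline library and 121, 128 and 127 CPM in parent doxycycline libraries. Stat2 held 17.9 and 19.8 CPM in TR/TO-Klf9 vehicle libraries, against 23.6, 24.4 and 22.9 CPM in parent vehicle libraries (log2 −0.33 ± 0.09 SE, adjusted p = 0.0102), and Tap1 held 10.3 and 9.73 CPM in TR/TO-Klf9 vehicle libraries, against 17.3, 13.1 and 13.4 CPM in parent vehicle libraries (log2 −0.57 ± 0.13 SE, adjusted p = 0.00249). Stat2 did not pass without TR/TO-Klf9 vehicle 1 (log2 −0.25, adjusted p = 0.0718) or by DESeq2 (log2 −0.32, adjusted p = 0.0539). For each of these 4 genes every TR/TO-Klf9 vehicle library lay below every parent vehicle library. The genes were picked by a test on these same libraries, so that order adds no support. How many of all genes separate this way was not counted. Tap2, the partner of Tap1, did not pass (log2 −0.07 ± 0.08 SE, adjusted p = 0.492), nor did Trim56 (log2 0.03 ± 0.09 SE, adjusted p = 0.815), though it passed when either TR/TO-Klf9 vehicle library was left out, and the parent vehicle libraries lie between them.

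Of 15 tested effectors 4 were higher in TR/TO-Klf9 cells, as was 1 of 5 tested presentation genes, beside 18.8% of all genes. Ifit1, which binds RNA lacking self marks, held 7.89 and 8.39 CPM in TR/TO-Klf9 vehicle libraries, against 4.83, 5.35 and 4.99 CPM in parent vehicle libraries (log2 0.70 ± 0.14 SE, adjusted p = 0.000899). With doxycycline the lines kept that order, with 8.73 CPM in the TR/TO-Klf9 doxycycline library and 5.24, 5.83 and 4.59 CPM in parent doxycycline libraries. Oasl2, a relative of the oligoadenylate synthetases, held 4.06 and 3.79 CPM in TR/TO-Klf9 vehicle libraries, against 2.13, 1.88 and 1.85 CPM in parent vehicle libraries (log2 0.98 ± 0.22 SE, adjusted p = 0.00165). Ifit1 and Oasl2 did not overlap between the lines, but how many of all genes separate this way was not counted. Both were under 10 CPM and were picked by the test on these same libraries, so the separation adds no support. Parp9 held 24.9 and 24.7 CPM in TR/TO-Klf9 vehicle libraries, against 20.9, 18.02 and 17.9 CPM in parent vehicle libraries (log2 0.37 ± 0.09 SE, adjusted p = 0.00307). H2-D1 held 90.0 and 80.2 CPM in TR/TO-Klf9 vehicle libraries, against 65.2, 79.6 and 74.1 CPM in parent vehicle libraries (log2 0.23 ± 0.07 SE, adjusted p = 0.0198), and Adar 183 and 184 CPM in TR/TO-Klf9 vehicle libraries, against 170.1, 163 and 169.7 CPM in parent vehicle libraries (log2 0.13 ± 0.05 SE, adjusted p = 0.0357). H2-D1 did not pass without TR/TO-Klf9 vehicle 1 (log2 0.16, adjusted p = 0.127), without parent vehicle 1 (log2 0.15, adjusted p = 0.0944) or by DESeq2. Adar did not pass by DESeq2 (log2 0.13, adjusted p = 0.105), nor when any 1 of 6 libraries was left out, namely TR/TO-Klf9 vehicle 2, parent vehicle 2 or 3, or parent doxycycline 1, 2 or 3 (log2 0.10 to 0.13, adjusted p = 0.0663 to 0.116). Isg15 just missed (log2 0.46 ± 0.18 SE, adjusted p = 0.0510). Among the scarcer members, Ifit3 stood at 1.24 ± 0.53, Psmb9 at 0.90 ± 0.59 and Bst2, the tether of budding virus, at 0.77 ± 0.32, and none of them passed.

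Some of these values have limits of their own. No strand is given for the counts, and Parp9 overlaps Dtx3l, whose level did not pass (log2 −0.18 ± 0.10 SE, adjusted p = 0.193). B2m overlaps Patl2, listed at 97.8 to 120 CPM, so reads of that locus may be shared. Adar overlaps Chrnb2, at 0.882 to 1.88 CPM. Oasl2 and Oasl1, Gbp2 and Gbp3, and H2-D1 and other class I genes are near-copies whose reads may be split. Macrophage markers also moved with the lines: 13 listed genes summed to 18.1 to 21.3 CPM in TR/TO-Klf9 vehicle libraries, against 8.0 to 8.62 CPM in parent vehicle libraries. Of these 13, 4 had enough reads to test. Most of the gap was Csf1r, with 13.5 and 11.4 CPM, against 2.23, 0.990 and 2.01 CPM, whereas C1qa had no count and Ptprc, the pan-leukocyte marker, reached at most 0.306 CPM in any library. The 17 neuron markers summed to 19.8 to 24.4 CPM in TR/TO-Klf9 vehicle libraries, against 35.2 to 35.9 CPM in parent vehicle libraries. That gap was Tubb3, a tubulin, with 14.1 and 13.8 CPM, against 31.3, 31.7 and 32.4 CPM, while of the 4 other tested neuron markers 2 were higher in TR/TO-Klf9 cells and none lower. Of 12 tested fibroblast markers 5 were higher and 3 lower. Over all tested genes 18.8% were higher and 20.1% lower. Dcn held 0 and 0.149 CPM in TR/TO-Klf9 vehicle libraries, against 14.6, 15.1 and 15.0 CPM in parent vehicle libraries, and Acta2 125 and 124 CPM, against 36.03, 37.7 and 38.5 CPM. The 15 fibroblast markers summed to 3819 to 3968 CPM in TR/TO-Klf9 vehicle libraries, against 3218 to 4177 CPM in parent vehicle libraries. Csf1r, Tubb3, Dcn and Acta2 were singled out after their values were seen. The part of these 3 lists in the results was not tested.

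**Figure D5:**
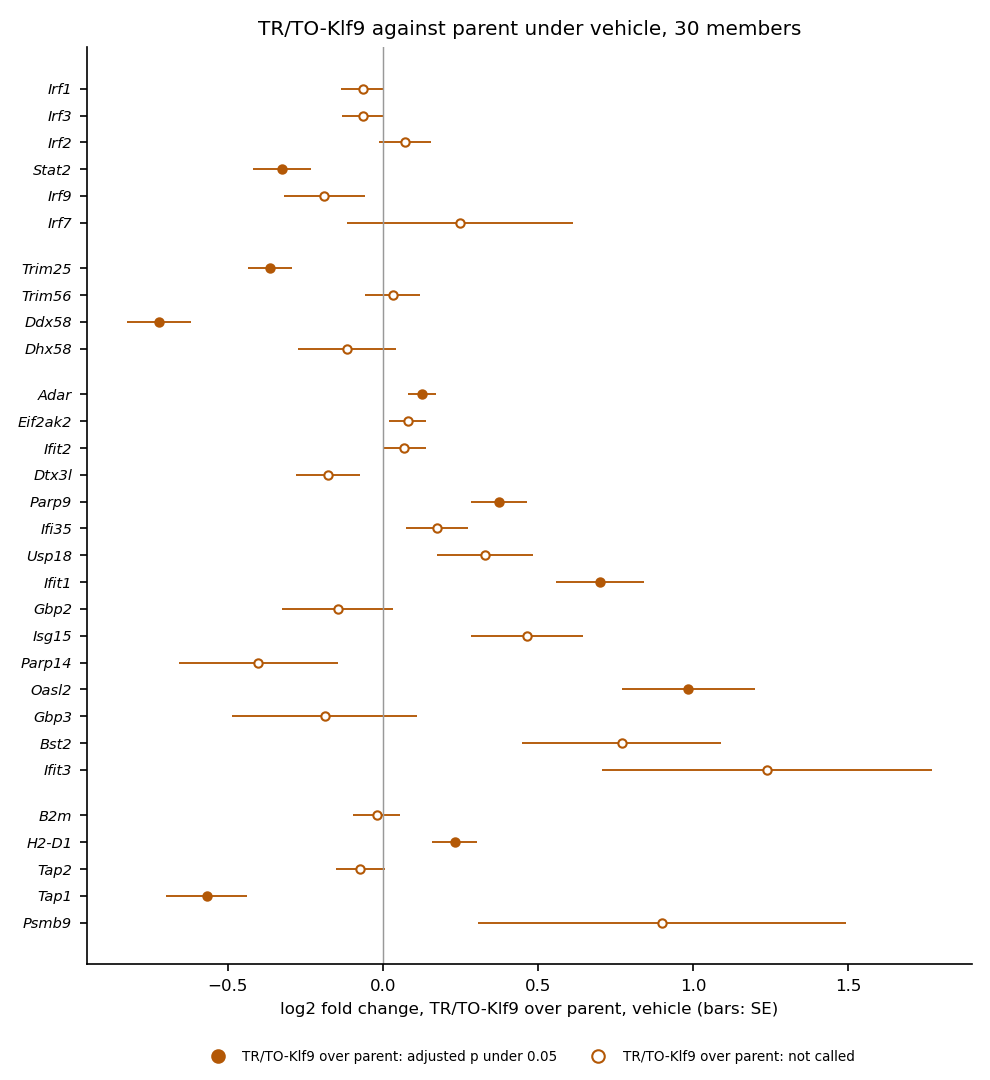
Log2 fold change of TR/TO-Klf9 over parent cells under vehicle with its SE for the 30 tested members, grouped by role. Filled points passed an adjusted p of 0.05, from Ddx58 at −0.72 to Oasl2 at 0.98.

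The wider pathway was followed in lists of genes outside the 38. In TR/TO-Klf9 cells doxycycline left the receptors and kinases mixed: of 9 tested 1 rose and 2 fell. Ifngr1, a chain of the interferon-gamma receptor, rose to 67.1 CPM, against 49.0 and 52.4 CPM with vehicle (log2 0.40 ± 0.08 SE, adjusted p = 0.00363). The kinase Tyk2 fell to 33.9 CPM, against 47.0 and 45.6 CPM (log2 −0.45 ± 0.10 SE, adjusted p = 0.00601), and Jak2 to 56.4 CPM, against 77.5 and 73.8 CPM (log2 −0.42 ± 0.09 SE, adjusted p = 0.00485). Of 14 tested sensing genes 3 rose and 2 fell. Sting1, the adaptor of DNA sensing, rose to 57.1 CPM, against 39.9 and 44.9 CPM (log2 0.43 ± 0.09 SE, adjusted p = 0.00518). Trex1, the nuclease that clears cytosolic DNA, rose (log2 0.58 ± 0.15 SE, adjusted p = 0.0156), as did Mavs, the adaptor of Ddx58 (log2 0.27 ± 0.07 SE, adjusted p = 0.0172). The ligase Traf3 fell (log2 −0.29 ± 0.07 SE, adjusted p = 0.00840), with log2 −0.06 and no call once the length trend was removed. These shares are read against the 6.44% and 11.4% of all genes.

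Of 32 other tested interferon-stimulated genes 3 rose and 4 fell with doxycycline in TR/TO-Klf9 cells, beside 6.44% and 11.4% of all genes. Ifi204, a DNA sensor of a family of near-copies, rose by 0.54 ± 0.15 and Lgals3bp by 0.36 ± 0.10, while Trim30a (−0.42 ± 0.14) and Helz2 (−0.39 ± 0.09) fell. Helz2 did not pass with the length trend removed (log2 −0.08, adjusted p = 0.595). The deubiquitinase Cyld fell (log2 −0.24 ± 0.07 SE, adjusted p = 0.0226), 1 of 9 tested negative regulators, and did not pass in that fit either (log2 −0.11, adjusted p = 0.354). Of 5 other GTPases 1 rose, Irgm1 (0.29 ± 0.09), and of 20 other presentation genes 1 rose, Rfxap (0.27 ± 0.08), a part of the class II promoter complex. With just the TR/TO-Klf9 libraries in the fit, none of the genes of these lists passed, but few of all genes did. By DESeq2 Trex1, Mavs, Ifi204, Lgals3bp, Trim30a, Cyld, Irgm1 and Rfxap did not pass, and with the length trend removed Trim30a, Irgm1 and Rfxap did not.

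Between the lines under vehicle, 5 of 14 tested sensing genes were lower in TR/TO-Klf9 cells and none was higher by edgeR, DESeq2 or limma-voom, beside 20.1% and 18.8% of all genes. Mavs held 70.1 and 75.7 CPM in TR/TO-Klf9 vehicle libraries, against 101, 104 and 100.3 CPM in parent vehicle libraries (log2 −0.48 ± 0.05 SE, adjusted p = 2.46e-06). The kinase Tbk1 held 138 and 135 CPM, against 187, 182 and 186 CPM (log2 −0.44 ± 0.05 SE, adjusted p = 2.09e-06). Zcchc3 (log2 −0.35 ± 0.12 SE, adjusted p = 0.0349) and Trex1 (log2 −0.32 ± 0.12 SE, adjusted p = 0.0419) were lower as well, and neither passed by DESeq2, which called 3 of the 14 lower. Dhx58 (log2 −0.12 ± 0.16 SE, adjusted p = 0.594) and Irf3, which Tbk1 phosphorylates, did not pass (log2 −0.07 ± 0.07 SE, adjusted p = 0.462). Of 9 negative regulators 3 were lower and none higher by any of these tools. They were Socs1 (log2 −0.80 ± 0.10 SE, adjusted p = 1.05e-05) and Socs3 (log2 −0.35 ± 0.08 SE, adjusted p = 0.00263), feedback inhibitors of Jak kinases, and Cyld (log2 −0.48 ± 0.05 SE, adjusted p = 9.01e-07).

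The counts of the next lists are read against the 18.8% of all genes that were higher and the 20.1% that were lower. Of 9 receptors and signalling genes 3 were higher and 2 lower in TR/TO-Klf9 cells. The type I receptor chains Ifnar2 (log2 0.40 ± 0.07 SE, adjusted p = 0.000342) and Ifnar1 (log2 0.23 ± 0.06 SE, adjusted p = 0.00384) were higher, and Ifngr1 (log2 −0.44 ± 0.06 SE, adjusted p = 3.56e-05) and Stat3 (log2 −0.30 ± 0.06 SE, adjusted p = 0.000827) lower. Of 32 other interferon-stimulated genes 7 were higher and 8 lower. Oas1a (1.02 ± 0.36), Oasl1 (0.91 ± 0.22) and Ifi27 (0.63 ± 0.10) were higher and Herc6 (−0.72 ± 0.11) lower. Ifi27 overlaps Ifi27l2a in the annotation, so its reads may be shared. Of 5 tested GTPases Ifi47 (1.16 ± 0.32), Igtp (1.15 ± 0.31) and Irgm1 (0.20 ± 0.07) were higher and Gbp9 (−2.61 ± 0.48) lower. Of 20 presentation genes 2 were higher, both of class II. Cd74, the invariant chain, held 2.03 and 2.15 CPM in TR/TO-Klf9 vehicle libraries, against 0.675, 0.891 and 0.563 CPM in parent vehicle libraries (log2 1.58 ± 0.33 SE, adjusted p = 0.00129). Ciita, the class II transactivator, held 0.703 and 1.19 CPM, against 0.415, 0.396 and 0.322 CPM (log2 1.29 ± 0.47 SE, adjusted p = 0.0389). Both are scarce, and Ciita overlaps Dexi, at 38.9 to 55.7 CPM. By DESeq2 Oas1a, Ifi47, Irgm1 and Ciita did not pass, nor did Irgm1 with the length trend removed. In parent cells no gene of these lists passed on doxycycline by edgeR, DESeq2 or limma-voom, and 1 of them had an unadjusted p under 0.05 by edgeR.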

How the data were processed

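RNA from 11 labelled samples was sequenced as oligo-dT primed libraries. Per the labels' protocols, about 250000 cells per well of 6-well plates were treated 24 hours after plating. The deposited file holds raw read counts per RefSeq transcript. The submitters' processing notes name build mm8 and the tools Bowtie, CASAVA, DESeq and FastQC; how reads were counted, on which strand and against which annotation release, and all versions, are not given in the sources here. Of 32923 accessions 32500 were named with a GRCm38 RefSeq table, used for names and neighbours only; the other 423 held 1.17% to 1.24% of counts. The row with the highest mean was kept per gene.

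The 2 identical columns were left out. Genes were filtered by filterByExpr, scaled by TMM, and the quasi-likelihood test of edgeR 4.0.16 was run (robust glmQLFit, glmQLFTest) in 1 fit of 4 group means over 9 libraries, with 5 residual degrees of freedom, a common coefficient of variation of 4.78% and Benjamini-Hochberg adjustment over 13536 genes. Standard errors are log2 fold changes divided by the square root of F. Alternatives were limma-voom 3.58.1, DESeq2 1.42.0, scaling by RLE, other filters, a replicate block, subsets of groups or libraries, other uses of the identical library, summed rows and removal of a length trend (loess, span 0.4, GENCODE M21 lengths for 97.9% of genes). The test was tried on simulated counts drawn with the same spread for every library, so that trial could not check the effect of unequal spread.

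The members and lists were chosen with earlier results of these data known. Named genes are Klf9, the 38 members, and up to 4 genes past the threshold per list and comparison. Ifi203, Rnf213 and H2-L of the lists were not matched. All pairs of parent doxycycline libraries differed by about sampling noise (0.960 to 1.029 as chi-square over its degrees of freedom). A parent doxycycline and vehicle pair came as near (1.04). These values cannot tell whether the replicates were separate cultures, and all were kept as separate samples as labelled. R 4.3.3 and Python 3.11.15 with pandas 2.3.3, numpy 2.4.6, scipy 1.17.1 and matplotlib 3.10.9 were used.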

Additional observations from a re-analysis of the deposited data

Results flagged for a closer look

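The doxycycline effect differed between TR/TO-Klf9 and parent cells for Klf9 and 13 genes named in the text. The test was that of the difference itself (edgeR, adjusted over all 13536 genes). By it 6.92% of all genes were lower and 2.75% higher. At most 4 genes per list are named here, and of 14 tested sensing genes 3 were higher and 2 lower. The log2 difference, TR/TO-Klf9 minus parent, was 1.14 for Klf9 (adjusted p = 1.01e-05). Among the members it was −1.65 for Trim56 and −0.27 for Adar. Among sensing genes it was 0.67 for Trex1, 0.50 for Sting1, 0.31 for Mavs and −0.30 for Tbk1. Among receptors and kinases it was 0.44 for Ifngr1 and −0.48 for Tyk2. Among negative regulators, GTPases and other interferon-stimulated genes it was −0.26 for Cyld, 0.40 for Irgm1, 0.50 for Lgals3bp, −0.43 for Helz2 and −0.34 for Zc3hav1. The adjusted p of the 11 list genes ran from 0.0120 (Ifngr1) to 0.0479 (Cyld). By DESeq2 Ifngr1 and Sting1 alone of these 11 passed, and with the length trend removed Ifngr1, Sting1 and Lgals3bp alone. In that fit Helz2 stood at log2 −0.12, adjusted p = 0.562 and Cyld at log2 −0.15, adjusted p = 0.369, and Adar did not pass either (log2 −0.09, adjusted p = 0.576). Each of the 14 differences rests on the lone TR/TO-Klf9 doxycycline library, and with the identical library counted as doxycycline neither Klf9 (log2 0.69, adjusted p = 0.652) nor Trim56 (log2 −0.73, adjusted p = 0.673) passed. That library held 45.9 CPM of Klf9, between the 44.1 and 48.7 CPM of the TR/TO-Klf9 vehicle libraries, against 101 CPM in the doxycycline library. Which of its labels is right was not tested.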

How the results depend on the processing

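The member counts depended on how the TR/TO-Klf9 doxycycline group was formed. For doxycycline in TR/TO-Klf9 cells, 3 members passed, against 0 with the identical library under both labels or as doxycycline, 1 with just the groups compared, and 1 with just that line's libraries when the identical library was counted as vehicle or the length trend was removed, the last 2 chosen after seeing the data. By its Klf9 level (45.9 CPM) the identical library lay inside the span of the TR/TO-Klf9 vehicle libraries. Leaving out 1 library at a time gave 2 to 4. For the difference between lines, 2 passed, against 0 with the identical library under both labels or as doxycycline, and 1 with DESeq2, no filter, a replicate block, the identical library as vehicle, the length trend removed or rows summed. Leaving out 1 library gave 1 to 4, with 4 (Eif2ak2 and Trim25 added) without TR/TO-Klf9 vehicle 1. Between lines 9 passed, and 6 to 11 over all alternatives. In parent cells 0 passed in every fit. Over all genes, 1538 fell and 872 rose with doxycycline in TR/TO-Klf9 cells by edgeR, 1075 and 244 by DESeq2, and 72 and 1 with just the groups compared. Trim56 passed in TR/TO-Klf9 cells in 20 of 22 alternatives, Adar in 16 and Eif2ak2 in 8. Between lines Ddx58, Ifit1, Oasl2, Parp9, Tap1 and Trim25 passed in 21 of 21, Stat2 in 19, H2-D1 in 17 and Adar in 8. None of the results just counted changed sign. The causes were not tested.

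Same-numbered libraries did not deviate together (correlations −0.01 to 0.05). Groups this small, some near sampling noise, could hide a pairing, and the lone TR/TO-Klf9 doxycycline library could not be checked. With the replicate block 2 members passed for doxycycline in TR/TO-Klf9 cells (Adar and Trim56), 9 between lines and 0 in parent cells. Without the lone TR/TO-Klf9 doxycycline library no value could be had for its comparisons. Depth limits the 8 untested members, which held 2 to 32 counts over 9 libraries.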
